A study of Mus musculus with 8 samples.

Results

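Matrix metalloproteinases and their tissue inhibitors were followed in mouse liver through 10 genes, which were the proteases Mmp2, Mmp8, Mmp9, Mmp12, Mmp13, Mmp14 and Mmp19 and the inhibitors Timp1, Timp2 and Timp3. Members were taken by name, as every non-control probe that the array design assigns to these genes. This gave 14 probes, with more than 1 probe for 3 of the genes, among 19504 genes named on the array in all. The livers came from male mice labelled C57BL/6, which the study's methods give as wild-type C57BL/6J, aged 14 to 17 weeks when the experiment began. For 4 weeks, 4 mice were administered standard chow (STD) and 4 mice an atherogenic diet (ATH) rich in fat and cholesterol, which per the methods also held cholic acid. No transgene, deletion or drug entered either group. RNA of each liver was labeled with Cy3 and hybridized to an Agilent whole-genome array of its own. The 4 arrays of a diet lay on 1 slide, so a slide effect and a diet effect cannot be told apart.

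Matrix metalloproteinases are zinc-dependent endopeptidases that are mostly secreted as inactive proenzymes and, once activated, cut collagens, elastin, basement membrane and many signaling proteins. TIMP proteins block these proteases by binding their active site, and TIMP2 also takes part in the activation of pro-MMP2 by MMP14 at the cell surface. In liver, stellate cells, macrophages, neutrophils and endothelial cells are known sources, and the balance between proteases and inhibitors is studied in the formation and resolution of scar tissue.

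The probes for Mmp12 and Timp1 are printed because Mmp12 was called higher on the atherogenic diet and because the 3 Timp1 probes differed in their diet differences. Each has 60 bases and is written 5′ to 3′ in lower case, with no stretch marked.
Mmp12 A_51_P313674: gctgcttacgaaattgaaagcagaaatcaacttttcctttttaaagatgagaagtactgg
Timp1 A_52_P87713: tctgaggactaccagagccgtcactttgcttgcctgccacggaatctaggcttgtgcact
Timp1 A_51_P512379: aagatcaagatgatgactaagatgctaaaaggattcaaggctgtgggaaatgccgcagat
Timp1 A_51_P512384: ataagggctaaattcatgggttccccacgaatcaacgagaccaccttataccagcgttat
Positions in the array files are those of mouse build mm7. The Mmp12 probe lies on the plus strand at chr9:7352125-7352640, a span of 516 bases for 60 bases of probe, so its match to the genome is interrupted. The Timp1 probe A_51_P512379 likewise spans 250 bases, at chrX:19305989-19306238. It directly follows A_51_P512384, at chrX:19305929-19305988, and A_52_P87713 lies further along at chrX:19307699-19307758. No annotation of build mm7 was used here, so exons and untranslated regions are not stated.

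Signals are given as the log2 processed signal minus the 75th percentile of that array, called scaled log2 signal below, on which 0 marks the percentile. Scaled signals of different probes are not set against each other, since probes differ in binding. The share of spots well above background was 72.35% to 77.27% on the STD arrays and 72.87% to 77.76% on the ATH arrays, and the number of arrays limits the precision. Arrays of the STD diet correlated at 0.9858 to 0.9908 and those of the ATH diet at 0.9711 to 0.9897. At a false discovery rate of 5%, limma called 2482 of 31056 detected probes, of which 38.2% were higher on the atherogenic diet. That share depended on the scaling, at 54.9% with the array median, 54.2% with quantile normalization, 86.4% with spike-in probes and 94.9% with no scaling. The median log2 fold change of all probes was -0.15, and it shifted upward by 0.31 with spike-in scaling and by 0.45 with no scaling.

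Of the 10 genes, each read by its brightest probe, limma called 2 higher on the atherogenic diet at 5%, Mmp12 and Mmp13, and 0 lower. Both passed the detection filter through the ATH arrays alone, so their calls are given as values, and the count is not read as support for a change of the group. Over all 16557 genes with a detected probe, 4.05% were called higher, 5.3% lower and 9.34% in either direction. Blocking on replicate number called the same 2 members and 5.01% of all genes. At 1% only Mmp12 was called, against a background of 0.26% called higher. At an unadjusted p under 0.05 there were 6 of the 10 genes, against 30.6% of all genes. The methods' test, with unequal variances, called 0 of the 10 after Benjamini-Hochberg adjustment and 0.0664% of all genes, and 4 of the 10 had an unadjusted p under 0.05, against 25.3% of all genes. The log2 fold change was above 0 for 9 of the 10 genes, against 34.9% of all genes. Its median was 0.69 over the members, 0.91 over the proteases and 0.21 over the inhibitors, beside -0.14 over all genes. The medians over members and proteases were the same with Mmp12 at the 3.05-fold given below. With no scaling 6 members were called higher, where 25.9% of all genes were.

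**Figure D1:**
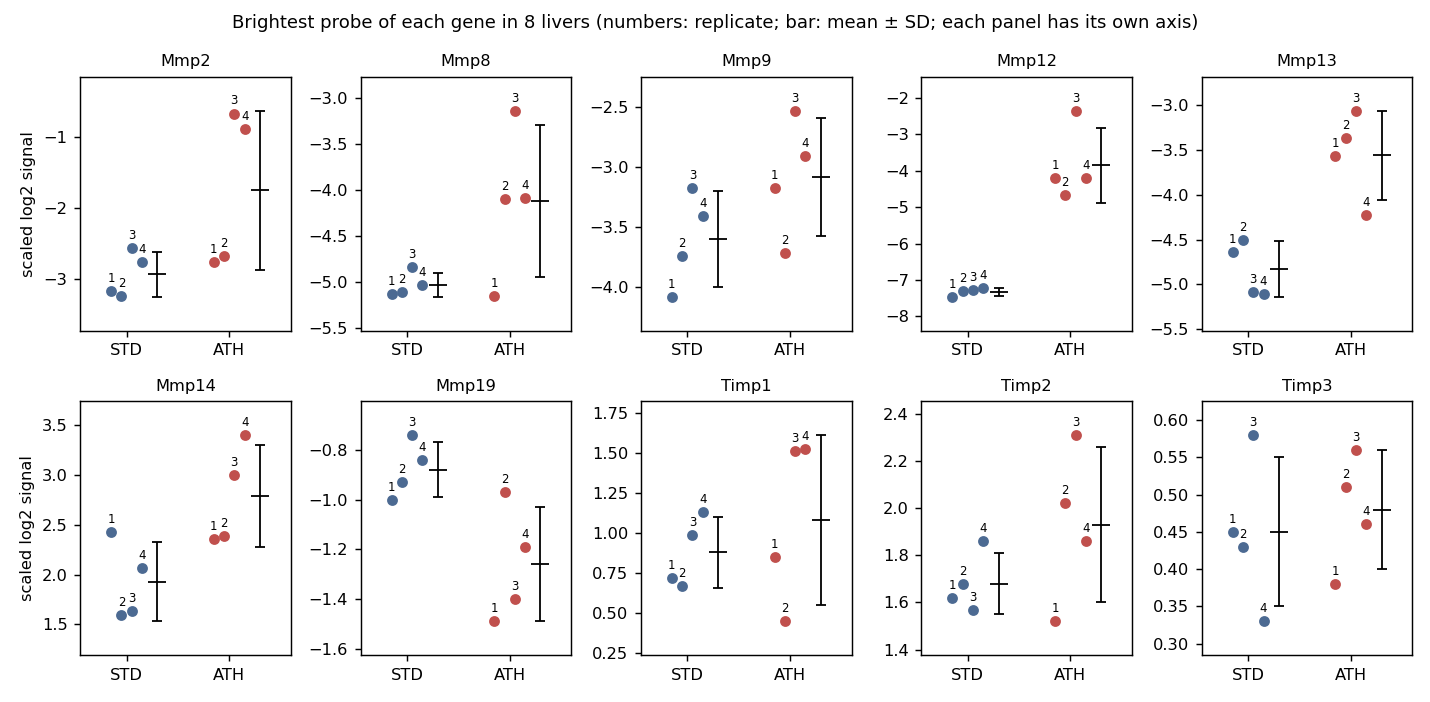
Scaled log2 signal (y axis, own scale in each panel) of the brightest probe of each of the 10 genes, in 4 STD livers (blue) and 4 ATH livers (red), with the replicate number at each point and the mean ± SD as a bar. Mmp12 and Mmp13 are the 2 genes in which no ATH value overlaps an STD value. Both passed the detection filter through the ATH arrays alone.

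Mmp12, the macrophage elastase, rose on the atherogenic diet. Its scaled log2 signal was -7.47, -7.31, -7.28 and -7.21 in the STD livers and -4.19, -4.68, -2.35 and -4.20 in the ATH livers. All 4 ATH livers lay above all 4 STD livers, with 2.53 between the nearest values of the diets, and ATH replicate 3 lay well above the other ATH livers. The spot was well above background on all 4 ATH arrays and not well above background on any STD array. The diet difference is therefore given as 3.05-fold, set against the lowest signal well above background on each STD array. That signal averaged -5.47. Mmp13 lay at -5.11 or higher in every STD liver, yet was well above background on only 2 of 4 STD arrays. Spots above the lowest such signal can thus fail this criterion, so 3.05-fold is no strict lower bound. The measured means were -7.32 ± 0.11 (SD, n = 4) and -3.85 ± 1.03 (SD, n = 4). Their fitted log2 difference, which is no measured fold, was 3.46 ± 0.44 (SE), with an adjusted p by limma of 0.007, 0.0293 in a fit that blocked on replicate number and 0.0149 with no detection filter. Its adjusted p ranged from 0.0024 to 0.125 over the alternatives. The call was lost with normexp background correction and an offset of 50 (log2 difference 0.49, adjusted p = 0.0879) and in the methods' test (adjusted p = 0.125).

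In bulk liver RNA, more cells of a type and more RNA per cell cannot be told apart. The median log2 fold change of 11 macrophage marker genes was 1.54, beside -0.14 over all genes. Limma called 5 of them higher on the atherogenic diet and 0 lower, where 4.05% and 5.3% of all genes were. Blocking on replicate number left 3 of them called, and 1 to 7 were called with an array left out, the lowest count being that without any one STD liver or without ATH replicate 3 or 4 and the highest that without ATH replicate 2. The summed signal of the 11, on the linear scale relative to the 75th percentile, was 58.3 to 79.5 in the STD livers. It was 111 to 611 in the ATH livers. The brightest genes weigh most in this sum. In the ATH livers these were Lyz2 and Marco, with mean scaled log2 signals of 7.42 and 6.14. All 11 were measured above background on some array. Their part in the Mmp12 result was not tested. Among 16548 other genes, the diet-centred values most like those of Mmp12 over the 8 arrays were those of Plscr1 (Pearson r = 0.986), Myo1h (r = 0.976) and Lpin1 (r = 0.97), given as a description. The highest r of so many genes on 8 arrays is high by selection, and the STD values of Mmp12 were not well above background. Limma called neither Myo1h (adjusted p = 0.143) nor Lpin1 (adjusted p = 0.9).

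The collagenases were read by Mmp13, which cleaves fibrillar collagens and is the main interstitial collagenase of mice, and by Mmp8, the collagenase stored in neutrophil granules. Mmp13 rose. Its scaled log2 signal was -4.64, -4.50, -5.08 and -5.11 in the STD livers and -3.57, -3.36, -3.06 and -4.23 in the ATH livers. The diets did not overlap, but ATH replicate 4 lay only 0.26 above the highest STD liver. The share of all genes whose ATH livers were all above the STD livers was 7.59%, and Mmp12 and Mmp13 were the 2 such members. Both passed the detection filter through the ATH arrays alone, so this count is not read as support for a change of the group. The Mmp13 probe, at chr9:7280046-7280105, was well above background on 2 of 4 STD arrays and 4 of 4 ATH arrays, so 2 of the STD values are uncertain. The fitted log2 difference was 1.28 ± 0.26 (SE), with an adjusted p by limma of 0.0283. It was 0.0452 with the replicate block and 0.0493 with no detection filter.

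The Mmp13 call was lost with any of 5 livers left out, while the log2 difference stayed between 1.11 and 1.5 over the 8 such fits. Its adjusted p by limma was 0.068 without STD replicate 1, 0.0785 without STD replicate 3 and 0.0738 without STD replicate 4. It was 0.0503 without ATH replicate 1 and 0.066 without ATH replicate 3. In these 5 fits the calls over all probes also fell from 2482, to between 394 and 1678. With normexp background correction the log2 difference was 0.24 (adjusted p = 0.227), and the methods' test gave an adjusted p of 0.127. The genes most like Mmp13 in diet-centred values over the 8 arrays were 1700018A04Rik (r = 0.972), Rrn3 (r = 0.966) and Dnttip2 (r = 0.959), again as a description. None of these was called by limma (adjusted p = 0.478, 0.911 and 0.921).

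Mmp8, read at chr9:7566361-7566420, did not pass the test. Its scaled log2 signal was -5.13, -5.11, -4.84 and -5.03 in the STD livers and -5.15, -4.10, -3.14 and -4.09 in the ATH livers. In 3 ATH livers the signal was above every STD liver, while ATH replicate 1 was the lowest of the 8. Between the diets the log2 difference was 0.91, with a 95% interval of 0.10 to 1.72 and an adjusted p by limma of 0.136. Without ATH replicate 1 it was 1.25 and the adjusted p was 0.0383, and with no scaling it was 1.36 with an adjusted p of 0.038. It was 0.58 without ATH replicate 3 (adjusted p = 0.235) and 0.08 with normexp background correction (adjusted p = 0.67). Of 8 detected neutrophil marker genes, limma called 0 in either direction, where 9.34% of all genes were called. With the replicate block 2 of the 8 were called, and 2 without ATH replicate 2. Their median log2 fold change was 0.51, beside -0.14 over all genes. The summed signal of the 8 was 1.69 to 3.43 in the STD livers and 3.29 to 14.6 in the ATH livers. The brightest gene weighs most in this sum. Elane, a defining granule protease of neutrophils, was not well above background on any array.

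The gelatinases Mmp2 and Mmp9 cut denatured collagen and basement membrane collagen. For Mmp2, which is expressed by stellate cells and fibroblasts and was read at chr8:91446191-91446250, the scaled log2 signal was -3.16, -3.23, -2.56 and -2.76 in the STD livers and -2.76, -2.68, -0.67 and -0.89 in the ATH livers. Only ATH replicates 3 and 4 lay above the STD livers, and ATH replicates 1 and 2 lay inside the STD range. Mmp2 had a log2 difference of 1.18, with a 95% interval of 0.07 to 2.29 and an adjusted p by limma of 0.154. Of 10 stellate cell markers 1 was called higher, Ngfr, a call lost with the replicate block (adjusted p = 0.0751), and the median log2 fold change of the 10 was 0.24.

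Mmp9, made by neutrophils and macrophages among others, had 2 probes. By the brighter probe, at chr2:164695457-164695516, the scaled log2 signal was -4.08, -3.74, -3.17 and -3.41 in the STD livers and -3.17, -3.71, -2.53 and -2.91 in the ATH livers. The diets overlapped, and the log2 difference was 0.52 with a 95% interval of -0.11 to 1.15 (limma, adjusted p = 0.248). The other probe, averaged over 10 spots, gave 0.40 (adjusted p = 0.486). With normexp background correction the brighter probe gave -0.04.

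Mmp14, a membrane-anchored protease that activates pro-MMP2, was well above background in every liver. Its brighter probe, at chr14:49308207-49308266, gave scaled log2 signals of 2.43, 1.59, 1.63 and 2.07 in the STD livers and 2.36, 2.39, 3.0 and 3.40 in the ATH livers. ATH replicates 3 and 4 were above all STD livers, whereas STD replicate 1 was above ATH replicates 1 and 2. By this probe the log2 difference was 0.86, with a 95% interval of 0.22 to 1.5, and the adjusted p by limma was 0.0894. It passed the threshold with normexp correction (0.87, adjusted p = 0.0389) and with no scaling (1.31, adjusted p = 0.0274). The dimmer Mmp14 probe gave 0.55 (adjusted p = 0.2).

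Mmp19, a secreted protease of basement membrane components read at chr10:128300933-128300992, was the member with a log2 fold change below 0. Its scaled log2 signal was -1.0, -0.93, -0.74 and -0.84 in the STD livers and -1.49, -0.97, -1.40 and -1.19 in the ATH livers. ATH replicate 2 fell inside the STD range, and the other ATH livers were below it. The log2 difference was -0.39, with a 95% interval of -0.72 to -0.06 and an adjusted p by limma of 0.121. The direction depended on the scaling, since the difference was -0.08 with spike-in scaling and 0.06 with no scaling.

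**Figure D2:**
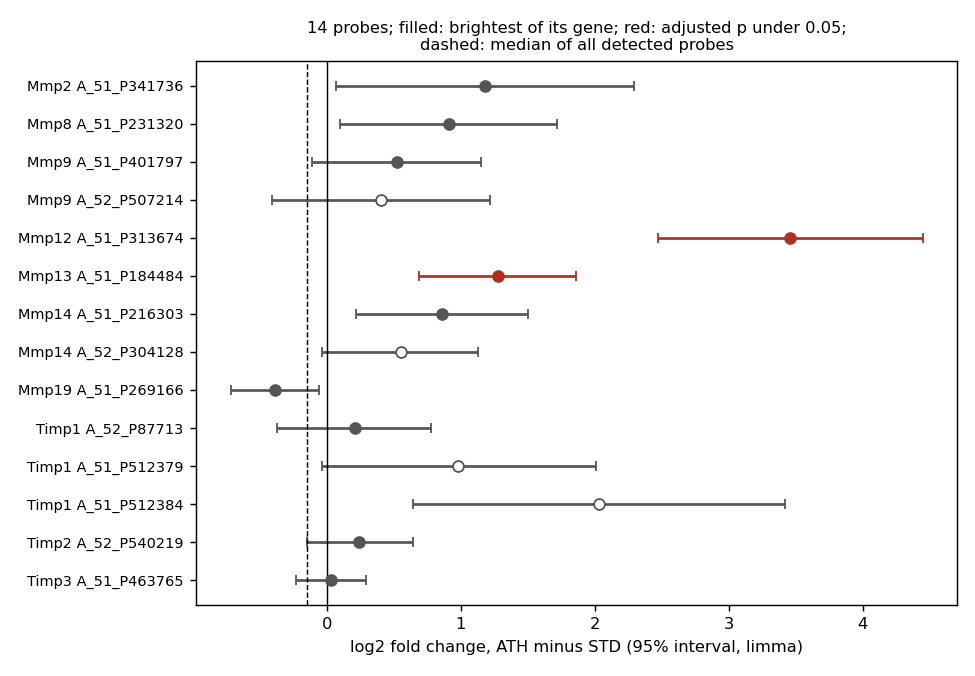
Log2 fold change, ATH minus STD, of the 14 probes (x axis) with its 95% interval by limma, one probe per line. Filled points are the brightest probe of a gene, red marks an adjusted p under 0.05, and the dashed line is the median of all detected probes at -0.15. The Mmp12 point at 3.46 is a fitted value against STD spots that were not well above background.

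Among the inhibitors, no gene passed the test by its brightest probe. Timp1 is the inducible member of the family and binds pro-MMP9 as well as the active enzymes. By A_52_P87713, its brightest probe, the scaled log2 signal was 0.72, 0.67, 0.99 and 1.13 in the STD livers and 0.85, 0.45, 1.51 and 1.52 in the ATH livers. ATH replicates 3 and 4 were the highest and ATH replicate 2 the lowest of the 8. The log2 difference was 0.21, with a 95% interval of -0.37 to 0.78 and an adjusted p by limma of 0.619, and with the mean of the 3 probes it was 1.07 (adjusted p = 0.0857).

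The other Timp1 probes gave larger differences. A_51_P512384 read -6.10, -5.14, -4.52 and -4.81 in the STD livers and -4.12, -4.35, -1.99 and -1.97 in the ATH livers. By this probe the diets did not overlap, with 0.17 between the nearest livers, and it was well above background on 3 of 4 STD arrays. Its log2 difference was 2.03 with a 95% interval of 0.64 to 3.42, and the adjusted p by limma was 0.0726, or 0.047 with the replicate block. A_51_P512379 read -3.94, -2.87, -4.37 and -5.04 in the STD livers and -2.83, -3.92, -2.77 and -2.77 in the ATH livers. Its log2 difference was 0.98 with a 95% interval of -0.04 to 2.01 (limma, adjusted p = 0.189), and the diets overlapped, since ATH replicate 2 lay below STD replicate 2. The 3 probes, whose sequences are printed above, thus spanned log2 differences of 0.21 to 2.03 for the same gene, and the difference between probes was not tested. In the gene table of a later mouse assembly, Timp1 overlaps Syn1 and Timp3 overlaps Syn3. Mmp2, Mmp8, Mmp19 and Timp2 each overlap another gene as well, so overlap is not particular to Timp1. Its part in the probe values was not tested.

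**Figure D3:**
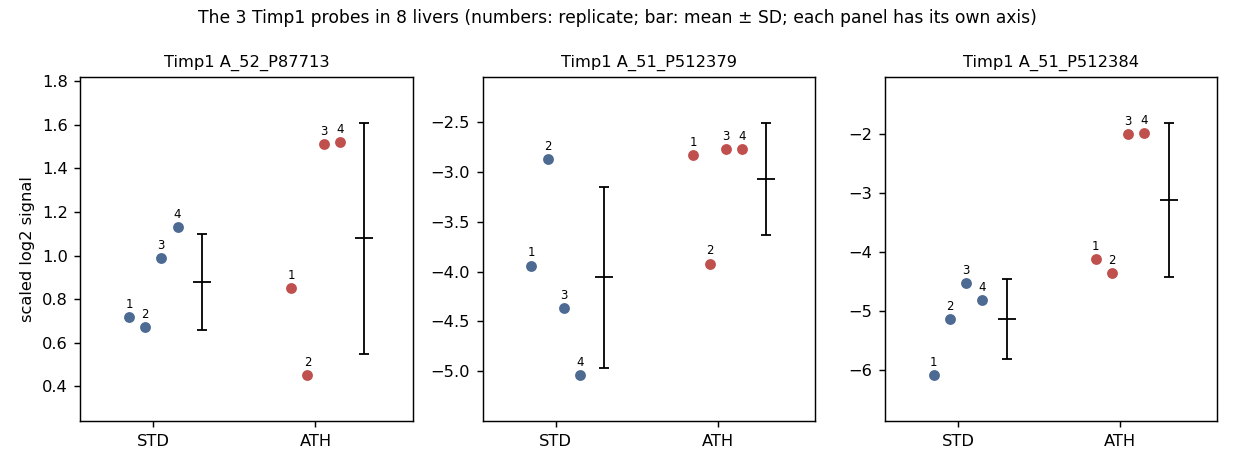
Scaled log2 signal (y axis, own scale in each panel) of the 3 Timp1 probes in 4 STD livers (blue) and 4 ATH livers (red), with replicate numbers and mean ± SD. ATH replicates 3 and 4 lie at the top in all 3 panels, and the diets are apart only in A_51_P512384.

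Timp2, which is widely and steadily expressed in many tissues, gave scaled log2 signals of 1.62, 1.68, 1.57 and 1.86 in the STD livers and 1.52, 2.02, 2.31 and 1.86 in the ATH livers. Timp3, an inhibitor held in the extracellular matrix that also blocks ADAM17, gave 0.45, 0.43, 0.58 and 0.33 in the STD livers and 0.38, 0.51, 0.56 and 0.46 in the ATH livers. The probes lie at chr11:118410877-118410936 on the minus strand and at chr10:85907162-85907221. The diets overlapped for both genes. The log2 difference was 0.24 for Timp2 (limma, adjusted p = 0.385) and 0.03 for Timp3, with a 95% interval of -0.23 to 0.29 (adjusted p = 0.886). With no scaling they were 0.69 (adjusted p = 0.0359) and 0.48 (adjusted p = 0.0349), where all probes had shifted upward by 0.45.

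To compare proteases with inhibitors free of the scaling, the log2 ratio of 4 pairs was formed within each array and centred on its STD mean. For Mmp14 and Timp2 the ratio was 0.56, -0.34, -0.19 and -0.04 in the STD livers and 0.59, 0.13, 0.44 and 1.30 in the ATH livers. The diets overlapped, and the difference was 0.62 (two-sided exact permutation test, p = 0.0857, adjusted over the 4 pairs 0.152). For Mmp13 and Timp1 the difference was 1.07 (exact permutation test, p = 0.0857, adjusted 0.152), with 3 of 4 ATH livers above all STD livers. Without ATH replicate 4 it was 1.44 (exact permutation test, p = 0.0286), but it was 0.20 (p = 0.686) when all detected probes of each gene were averaged and 0.04 (p = 0.914) with normexp background correction. For Mmp2 and Timp2 it was 0.93 (exact permutation test, p = 0.171, adjusted 0.171). For Mmp9 and Timp1 it was 0.31 (exact permutation test, p = 0.114, adjusted 0.152), but -0.61 (p = 0.0286) when all detected probes of each gene were averaged. The smallest p that 70 assignments of the livers allow is 0.0286.

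The 4 ATH livers differed more among themselves than the STD livers. This held over all detected probes too, with array correlations down to 0.9711 on the ATH diet and 0.9858 on the STD diet. It is thus not particular to the members. The SD was larger on the atherogenic diet for 9 of the 10 genes, and the share over all genes was not computed. It ranged from 0.10 to 0.40 on the STD diet and from 0.08 to 1.12 on the ATH diet. ATH replicate 3 had the highest signal of the 8 livers for 6 genes and ATH replicate 4 for 2 genes. Against the STD mean, the median deviation of the members was 0.07 in ATH replicate 1, 0.29 in replicate 2, 1.07 in replicate 3 and 0.66 in replicate 4. The macrophage markers had medians of 1.18, 0.48, 2.55 and 2.27 in the same livers, and the neutrophil markers 0.09, 0.09, 1.37 and 0.94. Among the 10 genes, ATH replicates 3 and 4 both lay above replicates 1 and 2 in 5, and the share over all genes was not computed. The called members were not among these. Mmp12 deviated by 3.13 in ATH replicate 1 and 3.12 in replicate 4, and Mmp13 was lowest of the ATH livers in replicate 4, at 0.60. The macrophage and neutrophil markers were highest in ATH replicates 3 and 4. So were the T and B cell markers, at 0.19, -0.15, 0.87 and 0.65, and the matrix genes given below. The stellate cell and endothelial markers were instead highest in ATH replicate 2, at 0.42 and 0.45. The hepatocyte markers had medians of -0.28, -0.14, -0.55 and -0.59, with 2 of 10 called lower by limma, Tat and Tdo2, although the median log2 fold change of the 10 turned from -0.35 to 0.09 with no scaling. Over all genes 5.3% were called lower. Blocking on replicate number lost the Tdo2 call (limma, adjusted p = 0.0607). Among further marker lists, 1 of 8 endothelial, 1 of 5 cholangiocyte and 0 of 9 T and B cell genes were called higher. The share over all genes was 4.05%. The median log2 fold changes of these lists were 0.24, 0.16 and 0.38. The calls of Ngfr, of the endothelial gene Lyve1, of the cholangiocyte gene Sox9 and of Tdo2 were lost without any one STD liver and without ATH replicate 3 or 4, and those of Ngfr and Lyve1 also without ATH replicate 1. Without ATH replicate 2, 4 T and B cell genes and 4 hepatocyte genes were called. The part of these cell types in the members' values was not tested.

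**Figure D4:**
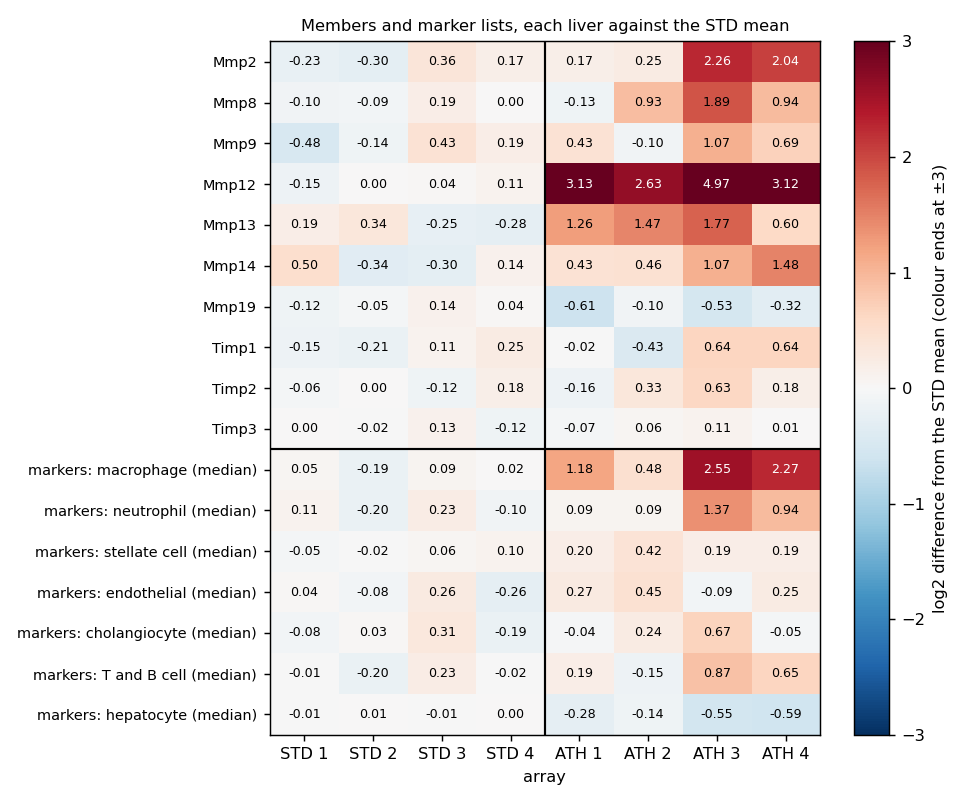
Log2 difference of each liver from the STD mean (colour and printed value, columns are the 8 arrays) for the 10 genes by their brightest probe and, below the line, for the median of each marker list. ATH replicates 3 and 4 hold the highest values for Mmp2, Mmp14, Timp1 and the macrophage, neutrophil and T and B cell markers. Mmp13 reached 1.26 and 1.47 in ATH replicates 1 and 2.

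Of 17 further MMP and TIMP genes, 11 had a detected probe and 1 of these was called, where 9.34% of all genes were, with a median log2 fold change of -0.06, or 0.39 with no scaling. The gene called was Timp4, an inhibitor with restricted tissue expression. Its scaled log2 signal was -3.76, -4.07, -4.02 and -3.80 in the STD livers and -4.60, -4.80, -4.86 and -4.57 in the ATH livers. The diets did not overlap, and Timp4 fell by 0.80 on the log2 scale (limma, adjusted p = 0.0177), a call lost without STD replicate 1 or 4. With no scaling its difference was -0.35 (adjusted p = 0.117). Mmp7, or matrilysin, an epithelial protease, read -4.37, -4.53, -4.20 and -4.46 in the STD livers and -4.84, -5.21, -1.65 and -1.87 in the ATH livers. Only ATH replicates 3 and 4 were high, and the adjusted p by limma was 0.427. Mmp12, Mmp13 and Mmp8 belong to a cluster of 10 MMP genes on chromosome 9, ordered Mmp13, Mmp12, Mmp1b, Mmp3, Mmp1a, Mmp10, Mmp8, Mmp27, Mmp20 and Mmp7 in the gene table. Of their neighbours, Mmp10 gave -0.40 (adjusted p = 0.0792), Mmp3, Mmp1a and Mmp20 had no detected probe, and Mmp1b and Mmp27 were not found among the named probes.

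Of 17 activators and other regulators of these proteases, 3 rose and 1 fell by limma, where 4.05% and 5.3% of all genes did. The median log2 fold change of the 17 was 0.33, beside -0.14 over all genes. Plaur, the receptor of urokinase, rose from -3.01, -3.28, -2.92 and -3.20 in the STD livers to -1.0, -2.15, 0.18 and -0.24 in the ATH livers. Every ATH liver was above every STD liver, and the log2 difference was 2.30 ± 0.44 (SE, adjusted p = 0.0231). Cd44, a hyaluronan receptor that docks MMP9, rose by 2.04 on the log2 scale (adjusted p = 0.0273), and Sparc, a matricellular protein, by 0.75 (adjusted p = 0.0331). A2m, a broad plasma protease inhibitor, fell by 1.10 (adjusted p = 0.0421), and with no scaling its adjusted p was 0.106. It was well above background on all 4 STD arrays but on only 2 of 4 ATH arrays. A2m thus passed the detection filter through the STD arrays alone, so its call, the 1 that fell, is given as a value only. With an array left out, 0 to 5 genes of the list were called. All of the 4 named genes lost their call without STD replicate 1, 2, 3 or 4 or without ATH replicate 4, all but A2m also without ATH replicate 3, and A2m also without ATH replicate 2.

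Among 16 ADAM and ADAMTS proteases, the sheddases and matrix proteases related to the MMPs, 2 rose and 0 fell by limma. Over all genes 4.05% were called higher and 5.3% lower. The median log2 fold change of the 16 was 0.46, beside -0.14 over all genes. Adam8, a leukocyte sheddase, rose from -2.01, -1.81, -1.68 and -1.99 in the STD livers to 0.04, -1.30, 1.95 and 1.44 in the ATH livers. The diets did not overlap, with ATH replicate 2 nearest to the STD livers, and the log2 difference was 2.40 (adjusted p = 0.0478, and 0.0618 with the replicate block). Adamts15 rose by 0.98 (adjusted p = 0.0307). Both calls were lost without any one of the STD livers and without ATH replicate 3 or 4, and that of Adam8 also without ATH replicate 1.

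Of 20 genes for matrix proteins that MMPs cut, 4 rose and 0 fell by limma, where 4.05% and 5.3% of all genes did. The median log2 fold change of the 20 was 0.51, beside -0.14 over all genes. Nid1, a basement membrane linker, read -0.02, 0.04, 0.26 and -0.03 in the STD livers and 0.95, 0.76, 0.89 and 1.12 in the ATH livers. Its values did not overlap, its log2 difference was 0.87 ± 0.13 (SE, adjusted p = 0.0124), and its call held with each array left out. Col3a1, a fibrillar collagen chain, rose by 1.74 on the log2 scale (adjusted p = 0.0326), Col5a1 by 0.78 (adjusted p = 0.0399) and Col4a1, of basement membrane, by 0.84 (adjusted p = 0.0427). The median deviation of the 20 genes from the STD mean was 0.26, 0.31, 0.85 and 0.75 in ATH replicates 1 to 4. The calls of the 3 collagen genes were lost without any one STD liver and without ATH replicate 3 or 4, and for Col4a1 and Col5a1 also without ATH replicate 1. That of Col5a1 was also lost with the replicate block (adjusted p = 0.0672).

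Of 19 transcription factors and cytokines that act on MMP and TIMP genes, 5 rose and 0 fell by limma. Over all genes 4.05% were called higher and 5.3% lower. The median log2 fold change of the 19 was 0.60, beside -0.14 over all genes. Fosl2, a subunit of the AP-1 transcription factor, read -3.54, -3.44, -3.08 and -3.62 in the STD livers and -2.35, -2.27, -1.45 and -1.71 in the ATH livers. The diets did not overlap, the log2 difference was 1.48 ± 0.23 (SE, adjusted p = 0.0137), and the call held with each array left out. Ets2, of the ETS family, rose by 0.68 (adjusted p = 0.0443). The cytokine genes rose by 1.29 for Il6 (adjusted p = 0.0304), 2.55 for Il1b (adjusted p = 0.0342) and 3.14 for Tnf (adjusted p = 0.0416), which was well above background on 3 of 4 STD arrays. The calls of Ets2, Il6, Il1b and Tnf were lost without STD replicate 1, 2 or 3 and without ATH replicate 1, 3 or 4, and all but that of Il6 without STD replicate 4. Those of Ets2 and Tnf were also lost with the replicate block (adjusted p = 0.057 and 0.0644).

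**Figure D5:**
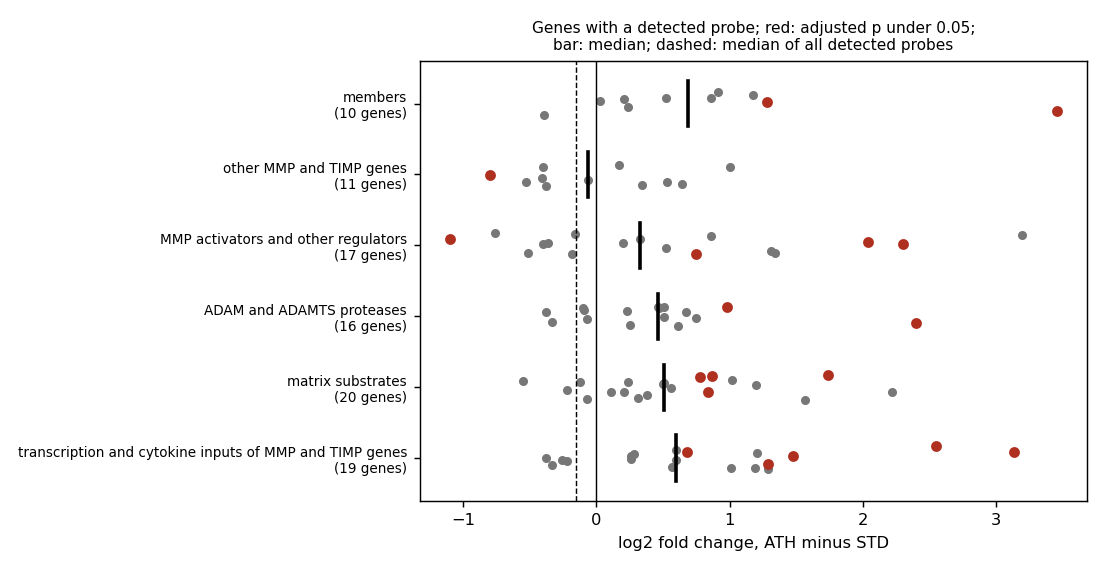
Log2 fold change, ATH minus STD (x axis), of every gene with a detected probe in the member list and in 5 related lists (rows). Red marks an adjusted p under 0.05, the short bar is the median of the list, at 0.69 for the members and -0.06 for the other MMP and TIMP genes, and the dashed line at -0.15 is the median of all detected probes.

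Promoters were available from RefSeq, build GRCm38.p6, for 7 of the 10 genes, and the letters of 3 motifs known from MMP promoters were searched on both strands from 250 bases before to 50 after the start. The AP-1 letters TGAGTCA or TGACTCA were found in 5.2% of 32851 promoters. Among the 7 genes they were found in the called genes Mmp12, at 1 of its 2 starts, and Mmp13. The PEA3 letters AGGAAG or CTTCCT were in 35.4% of all promoters and in 6 of the 7 genes. The TATA letters TATAAA or TTTATA were in 13.6% of all promoters and in 3 of the 7 genes, Mmp8, Mmp12 and Mmp13. The 250 bases before the start are printed for the called genes, with matches in capitals. They lie at chr9:7272264-7272513 for Mmp13 and, for the Mmp12 start with the AP-1 letters, at chr9:7347124-7347373, both on the plus strand.
Mmp13: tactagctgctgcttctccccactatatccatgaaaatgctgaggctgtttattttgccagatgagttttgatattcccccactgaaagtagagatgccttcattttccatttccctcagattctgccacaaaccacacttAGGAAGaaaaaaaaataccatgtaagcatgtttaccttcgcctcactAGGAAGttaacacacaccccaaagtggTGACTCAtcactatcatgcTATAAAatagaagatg
Mmp12: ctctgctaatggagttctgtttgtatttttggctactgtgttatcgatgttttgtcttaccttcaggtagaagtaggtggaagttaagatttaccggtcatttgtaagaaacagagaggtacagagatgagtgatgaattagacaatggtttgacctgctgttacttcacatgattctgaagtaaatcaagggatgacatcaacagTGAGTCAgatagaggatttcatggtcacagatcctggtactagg
In Mmp13 the AP-1 letters began 35 bases and the TATA letters 16 bases before the start, and the PEA3 letters 109 and 62 bases before it. At the printed Mmp12 start the AP-1 letters began 44 bases before it, and the TATA letters lay after it. The other Mmp12 start, with chr9:7344147-7344396 before it, is not printed. It held no AP-1 or TATA letters and the only PEA3 letters of Mmp12. A gene counts here if any of its starts holds the letters, while the shares are per promoter, so the counts and shares are not on the same footing. These matches are descriptions of the reference sequence, and binding was not measured.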

How the data were processed

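Liver RNA of 4 STD and 4 ATH mice was measured on 1-color arrays. The authors scanned the arrays and extracted spot intensity values with Agilent Feature Extraction version 9.5 (submitters' processing notes), and the deposited intensity carries Feature Extraction's background subtraction and detrending, with no scaling of arrays to each other. A log2 table of 31642 entries was deposited by the authors as well. Its differences between arrays equalled those of the log2 processed signal for 99.53% of 31056 probes within 0.001 after a constant per array, and the baseline of this table was not given in the sources used here.

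Spots of a probe were averaged without outlier-flagged spots, converted to log2 and lowered by the array's 75th percentile. A probe was detected when well above background, positive and significant, and not an outlier on at least 3 of 4 arrays of either diet. Of 41174 probes, 22944 were named by accession, 6664 by symbol and 3108 by synonym, and 8458 kept the file's name. A gene was read by its brightest detected probe. Diet was tested with limma 3.58.1 in R 4.3.3 (lmFit, eBayes, two-sided, Benjamini-Hochberg over all detected probes). Within-array ratios were tested in Python 3.11.15 with scipy 1.17.1. Tested on simulated data for this comparison, which held 31042 probes and 200 planted log2 changes of 2, limma found 92.5% of the planted changes. It made 6 false calls. The simulated noise was alike in both diets, so the share does not hold for smaller differences or for a wider ATH spread.

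Groups came from the sample labels, and p-values measure the spread between these mice. Same-numbered arrays share a position on their slides. The correlations between their departures from the diet means were 0.1002, 0.2297, 0.1815 and 0.1766, against a threshold of 0.1 for pairing. The lowest was barely above it, and correlations between differently numbered arrays are not given for comparison. Replicate number was used as a block in alternative fits only. The main limma fits and the main permutation tests did not use these pairs. The members and lists were chosen with earlier results of these data known. Genes named outside the members are those called at 5% with the lowest adjusted p, at most 6 a list, any other MMP or TIMP gene, and the 3 genes most like each called member. Other alternatives were normexp with an offset of 50, other scalings, filters, tests and thresholds, the authors' log2 table, the mean of a gene's probes, and each array left out.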

Additional observations from a re-analysis of the deposited data

Results flagged for a closer look

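Of 28 sets of 4 livers, 1 for each of the 14 probes on each diet, 1 held a liver far from the other 3. For the Timp1 probe A_51_P512379, ATH replicate 2 read -3.92 in scaled log2 signal, while the other ATH livers lay between -2.83 and -2.77. The gap to the nearest liver was 0.948 of the whole range. Chance alone marks about 1 in 20 such sets.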

How the results depend on the processing

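The call of Mmp12 held with each of the 8 arrays left out (adjusted p by limma 0.0024 to 0.0275) and that of Mmp13 with 3 of them. For Mmp12 every such fit still sets ATH livers against STD spots that were not well above background. The held call therefore adds no support for Mmp12. With an array left out, 1 to 2 members, 394 to 3986 probes and 1 to 10 of the other MMP, ADAM, ADAMTS and matrix genes were called, beside 2, 2482 and 7. With normexp background correction these counts were 1, 6394 and 15, and with no scaling 6, 7365 and 21. The methods' test gave 0, 22 and 0, and a false discovery rate of 1% gave 1, 164 and 0. With no detection filter 1085 probes and 2 of the other genes were called, and with spike-in scaling 12 of the other genes. Detection on all 8 arrays left 0 members called, since by its construction Mmp8, Mmp12 and Mmp13 were no longer tested.

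The sign turned for Mmp9 with normexp (-0.04), for Mmp19 with no scaling (0.06), for Timp3 without STD replicate 4 (-0.01, with 0.07 as the highest value with an array left out) and for the Mmp9 to Timp1 ratio with normexp (-0.23) and with the mean of probes (-0.61). The Mmp13 to Timp1 ratio difference ranged from 0.79 to 1.44 with an array left out and passed 5% without ATH replicate 4 (1.44). That pass is not read as support, since Mmp13 passed the detection filter through the ATH arrays alone. Over all alternatives the ratio difference went as low as 0.04, with normexp, and was 0.20 with the mean of probes. The cause was not tested.

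With the replicate block 1383 probes were called, and the member genes called were again Mmp12 and Mmp13, by their brightest probes. Apart from the calls given beside the results, the block changed no other call of a gene or pair named here. For the ratio pairs the block was added after the data were seen, and the exact permutation test by sign flips within 4 pairs cannot go below p = 0.125.

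Signals near background limit the collagenase, Mmp12 and dimmer Timp1 results.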
